A study of Danio rerio with 4 samples.

Results

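The genes described here are the copies of the spliceosomal small nuclear RNA (snRNA) genes in the gonads of adult zebrafish. They were chosen by name, as the gene IDs whose Ensembl symbol was U1, U2, U4, U5, U6, U11, U12, U4atac or U6atac, alone or with a copy suffix, or began with rnu. Of 32520 gene IDs counted, 535 carried such a symbol, and 47 of these had at least 10 counts in total over the 4 libraries. These 47 copies are the members described below. They held 1967 of the 2578 counts of all 535 IDs, and 289 of the 535 had no count in any library.

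The 4 libraries came from 2 ovaries and 2 testes of adult AB zebrafish, 1 fish per library, and were compared as ovary against testis. All 4 fish were null controls. The study tested exemestane, which blocks the oestrogen-making enzyme aromatase, and these fish received neither exemestane nor its solvent DMSO. The AB fish are a laboratory strain, and by the study's methods both sexes of the group shared 1 tank, divided by a perforated plate. The gonads were taken whole, so each library mixes germ cells with the somatic cells around them.

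The spliceosome removes introns from pre-mRNA and is built from small nuclear ribonucleoproteins (snRNPs), each an snRNA with its proteins. U1 pairs with the 5′ splice site, U2 with the branch point, and a tri-snRNP of U4, U6 and U5 then joins, after which U4 leaves and U6 and U2 form the catalytic core. A minor spliceosome with U11, U12, U4atac and U6atac, sharing U5, removes a rare class of introns. The snRNAs are encoded by many copies, and in Xenopus the U1 copies used by oocytes and early embryos differ from those of adult tissues. Mature snRNAs carry no poly(A) tail.

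The total count was 26137839 and 18085251 in the ovary libraries and 11554811 and 12382674 in the testis libraries, so the ovary libraries held more counts. Levels are given as CPM, counts per 1000000 of the library size scaled by trimmed mean of M-values (TMM), and 3 counts in a library correspond to 0.159 to 0.201 CPM. Ovary markers summed to 17700 and 10400 CPM in the ovaries against 90.5 and 45.4 in the testes, and the testis markers found (8 of 10) to 43.2 and 21.8 against 2730 and 1910, so the tissues matched their labels. Of the 10 ovary markers zp2.1 was at 0 in testis 2, and tssk6 and tekt1 of the testis list were at 0 in both ovaries. Summed liver markers were at 3.02 to 21.3 CPM in the 4 libraries. Of 4 blood markers 2 were found, and hbae1.1 was at 0 in every library, so the blood value, 1.69 to 9.15 CPM, is that of hbaa1 alone. In whole gonads, fewer cells of a type and less RNA per cell cannot be told apart. Only reads placed at 1 gene enter gene counts under the default of the counting tool, so the value of each near-identical copy is uncertain, and the sums below are not total snRNA levels. Copy lengths were not used, so levels are compared between libraries and not between classes.

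Summed over its members, each snRNA class with a member except U4 was higher in both testes than in both ovaries. Over all 47 members the sum was 122 and 168 counts in the ovaries and 714 and 963 in the testes. In CPM that was 6.46 and 11.3 in the ovaries (8.87 ± 3.41, SD, n = 2) and 46.7 and 61.3 in the testes (54.0 ± 10.4, SD, n = 2). Both testes lay above both ovaries. The ratio of the means was 6.09, and no test is given for a sum over members.

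**Figure D1:**
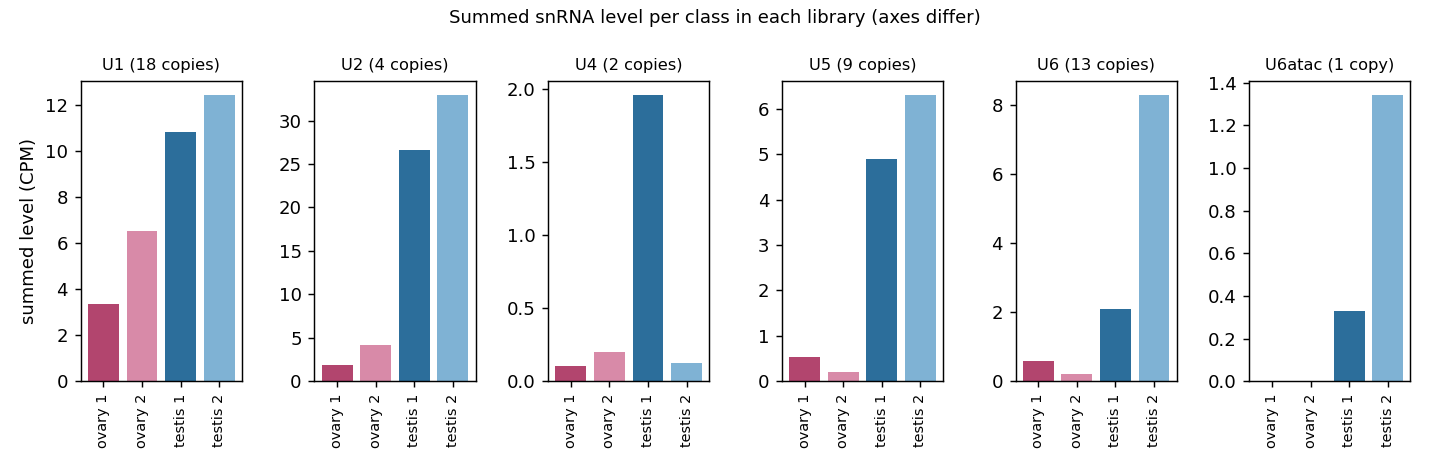
Summed CPM of the member copies of each snRNA class, with 1 bar per library (n = 1 fish each, no error bar), linear axes from 0 that differ between classes, and the ovaries in red and the testes in blue. Both testes lie above both ovaries for U1, U2, U5, U6 and U6atac, while for U4 testis 2 (0.127 CPM) lies among the ovaries (0.106 and 0.201 CPM).

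A member was taken as higher in a tissue only if its libraries separated in raw counts as well as in CPM. Of the 47 members, 27 were higher in both testes than in both ovaries (57.4%), 6 were higher in both ovaries (12.8%), and 14 overlapped. Some of the 27 separated on 1 count in testis 1 against none in the ovaries, fewer than the floor of 3 counts. These were ENSDARG00000109432 and ENSDARG00000082628 (U1) and ENSDARG00000111816 (U5). For U6 they were ENSDARG00000085130, ENSDARG00000109515, ENSDARG00000110956 and ENSDARG00000114713. Over all gene IDs with at least 10 counts, separation was judged by CPM alone, a looser rule. It was found in 49.1% (testes above) and 32.8% (ovaries above). By CPM alone the members ENSDARG00000114770 (U5) and ENSDARG00000113647 (U6) would also be higher in both testes. Only 12 members passed the filter on low counts and entered edgeR's quasi-likelihood test. At a Benjamini-Hochberg adjusted p under 0.05, 10 of them were higher in testis and 2 higher in ovary, where 36.7% and 28.5% of all genes tested were called in these directions. A copy with so few counts passed the filter mostly through the tissue where it was high, so this count says little about the members as a set. The testis calls fell without either ovary and rose without testis 1, and the ovary calls fell when any 1 library was left out. The members tested changed too, to 24 without ovary 1, 22 without ovary 2, 21 without testis 1 and 13 without testis 2. The numbers of calls in those fits therefore cannot be set directly against 10 and 2 of 12. Among the 35 members that were not tested, 17 were higher in both testes, 4 in both ovaries, and 14 overlapped. A copy could also reach the minimum of 10 counts through 1 tissue alone. Of the 47 members, 21 had no count in either ovary and 2 had none in either testis. The splits above therefore also say little about the members as a set. With no filter beyond 1 count all 47 members were tested, and 14 were called higher in testis and 2 in ovary. Over all 29285 genes tested in that fit, 7314 and 6049 were called in these directions.

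**Figure D2:**
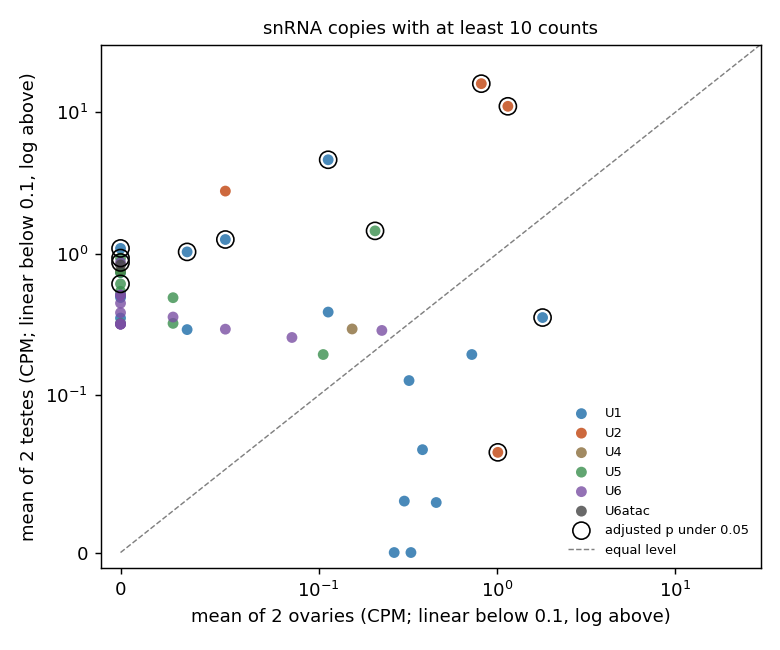
CPM of each of the 47 member copies, as the mean of the 2 ovaries (x axis) and the mean of the 2 testes (y axis), on axes that are linear below 0.1 CPM and logarithmic above, 1 point per copy, coloured by snRNA class, with a ring around copies at an adjusted p under 0.05. Most points lie above the dashed line of equal level, and the ringed copies below it are 1 U1 and 1 U2 copy.

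U1, which recognises the 5′ splice site, had copies in both directions. Its 18 members, of 182 IDs, summed to 63 and 97 counts in the ovaries and 165 and 194 in the testes. In CPM that was 3.33 and 6.51 against 10.8 and 12.4, a ratio of the means of 2.36. Of the 18, 9 lay higher in both testes (against 49.1% of all IDs with at least 10 counts), 5 in both ovaries (27.8%, against 32.8%), and 4 overlapped, so the split was close to that of all IDs.

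The U1 copy with the highest mean CPM, ENSDARG00000083063, had 3 and 1 counts in the ovaries and 73 and 70 in the testes. In CPM it stood at 0.159 and 0.0671 against 4.77 and 4.46, so the testes were close to each other and far from the ovaries. Its log2 fold change (testis over ovary) was 5.21 ± 0.79 (SE, adjusted p = 0.002), and the depth-scaled ratio of pooled counts was 39.0 with a 95% exact interval of 14.9 to 145, which covers counting error only. ENSDARG00000112345, also annotated U1, ran the other way with 30 counts in each ovary and 4 and 7 in the testes. That is 1.59 and 2.01 CPM in the ovaries against 0.261 and 0.446 in the testes. Its log2 fold change was -2.31 ± 0.68 (adjusted p = 0.0244), and its call was lost when any 1 library was left out (adjusted p = 0.0645 to 0.124). It was also lost under DESeq2 (adjusted p = 0.0521) and under library size alone (adjusted p = 0.0781).

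The other 3 tested U1 copies were higher in testis. ENSDARG00000111248 had no count in either ovary and 13 and 21 in the testes, which is at least 6.07-fold higher against a floor of 3 counts per library (adjusted p = 0.00574). ENSDARG00000110859 had 2 and 0 counts against 19 and 20, a log2 fold change of 4.26 ± 1.01 (adjusted p = 0.00838). Its call was lost without ovary 2. ENSDARG00000109433 had 0 and 1 counts against 16 and 16, a log2 fold change of 4.79 ± 1.07 (adjusted p = 0.00593), and its call was lost without ovary 1.

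Among the U1 copies that were not tested, 4 more lay higher in both ovaries. ENSDARG00000113698 had 7 and 16 counts in the ovaries and 3 in each testis. ENSDARG00000115069 had 2 and 12 against 0 and 1, and ENSDARG00000116911 had 3 and 9 against 2 and 0. ENSDARG00000115827 had 1 and 9 counts in the ovaries and none in the testes. Ovary 2 was the higher ovary in all 4 of these, although its library was the smaller.

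Shares of the member counts of a class in the same library need no scaling between libraries. ENSDARG00000112345 held 47.6% of the U1 member counts in ovary 1 (Wilson 95% interval 35.8 to 59.7) and 30.9% in ovary 2 (22.6 to 40.7). In the testes it held 2.42% (0.947 to 6.07) and 3.61% (1.76 to 7.26). ENSDARG00000083063 held 4.76% and 1.03% of the U1 member counts in the ovaries and 44.2% and 36.1% in the testes. Over all 182 U1 IDs the counts were 86 and 152 in the ovaries and 244 and 303 in the testes. Shares of all U1 counts would be smaller. The leading U1 copy thus differed between the tissues in these 4 libraries. The intervals for ENSDARG00000112345 did not overlap between ovary and testis, but they cover counting error only, not the spread between fish. The same counts gave the call of this copy above, so its shares are no separate support for that call. A share also falls where other copies of the class hold more counts, as ENSDARG00000083063 did in the testes. Leaving out ENSDARG00000083063 took the log2 ratio of the U1 sum from 1.23 to 0.53.

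**Figure D3:**
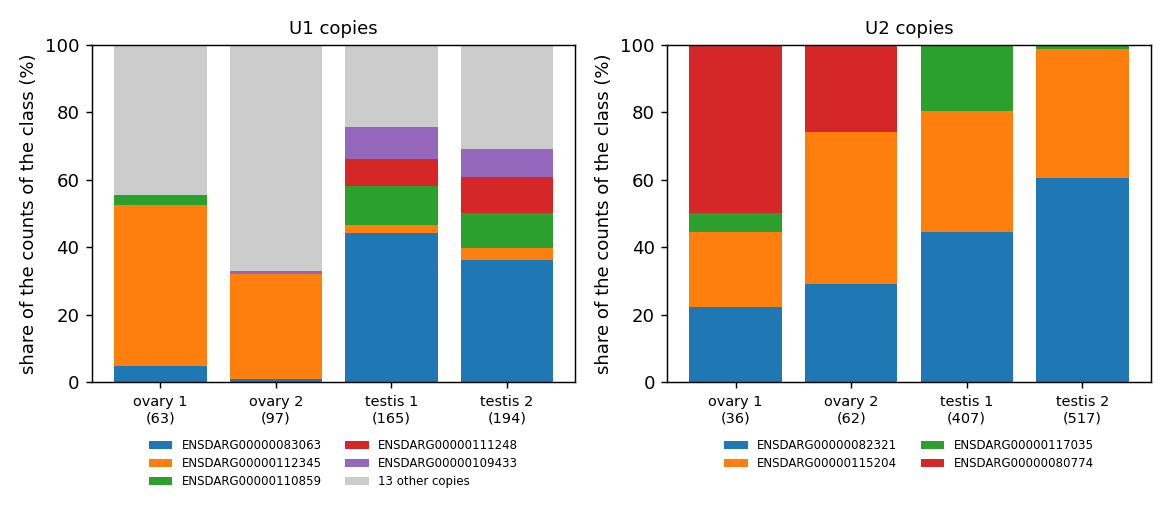
Stacked bars of the share (percent) of the member counts of the U1 class (left) and the U2 class (right) held by each leading copy in each library, with the class counts under each bar and the remaining U1 copies in grey. ENSDARG00000112345 (U1) and ENSDARG00000080774 (U2) hold larger shares in both ovaries than in either testis, and ENSDARG00000083063 (U1) holds larger shares in both testes.

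U2, which pairs with the branch point, had few annotated copies and a wide gap between the tissues. Its 4 members, of 11 IDs and including 1 with the symbol rnu2, summed to 36 and 62 counts in the ovaries and 407 and 517 in the testes. The sums were 1.90 and 4.16 CPM against 26.6 and 32.9 CPM, a ratio of the means of 9.83. The log2 ratio of the sums was 3.29, and 3.97 without ovary 2. No member overlapped between the tissues, with 3 higher in testis and 1 in ovary, where the shares over all IDs were 49.1% and 32.8%, and 4 copies are too few to tell these apart.

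ENSDARG00000082321 (U2) had 8 and 18 counts in the ovaries and 181 and 313 in the testes, or 0.423 and 1.21 CPM against 11.8 and 19.9 CPM. Its log2 fold change was 4.30 ± 0.68 (adjusted p = 0.00278). ENSDARG00000115204 (U2) had 8 and 28 counts against 146 and 197, or 0.423 and 1.88 CPM against 9.54 and 12.5 CPM, with a log2 fold change of 3.28 ± 0.78 (adjusted p = 0.0113). In both copies ovary 2 lay above ovary 1, by a margin far smaller than the gap to the testes. These 2 copies and ENSDARG00000083063 of U1 were the only members with 100 counts or more, so 44 of the 47 rest on fewer.

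The U2 copy ENSDARG00000080774 ran the other way, with 18 and 16 counts in the ovaries and 0 and 2 in the testes. In CPM that was 0.952 and 1.07 against 0 and 0.127, a log2 fold change of -3.82 ± 1.04 (adjusted p = 0.0148). Its call was lost without ovary 1 (adjusted p = 0.0685), without testis 1 (adjusted p = 0.0622) and under DESeq2 (adjusted p = 0.0567). Without ovary 2 it failed the filter, so that fit gave no value. It held 18 of the 36 U2 member counts of ovary 1 (Wilson 95% interval 34.5 to 65.5%) and 25.8% of those of ovary 2 (16.6 to 37.9). In the testes it held 0% (0 to 0.935) and 0.387% (0.106 to 1.40). Other U2 copies held more counts in the testes, which also lowers its share there. These shares are no separate support for its call. The rnu2 copy ENSDARG00000117035, which was not tested, had 2 and 0 counts in the ovaries and 80 and 5 in the testes, so nearly all of its counts came from testis 1.

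U5, the snRNA that aligns the exons and serves both spliceosomes, was almost without counts in the ovaries. Its 9 members, of 20 IDs, summed to 10 and 3 counts in the ovaries and 75 and 99 in the testes. The sums were 0.529 and 0.201 CPM against 4.90 and 6.30 CPM (0.365 ± 0.232 against 5.60 ± 0.991, SD, n = 2 each). The log2 ratio of 3.94 was 4.80 without ovary 1. The testes lay above the ovaries in counts and CPM for 7 of the 9 (77.8%), against 49.1% of all IDs by CPM alone. The other 2 were counted as overlapping, though ENSDARG00000114770 separated in CPM (0.0529 and 0 against 0.915 and 0.0637).

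ENSDARG00000111903, the U5 copy with the highest mean CPM, had 4 and 3 counts in the ovaries and 25 and 20 in the testes. Its log2 fold change was 2.77 ± 0.67 (adjusted p = 0.0121), and its call was lost when either ovary was left out and under DESeq2 (adjusted p = 0.0532). ENSDARG00000081029 (U5) had no count in either ovary and 10 and 19 in the testes, at least 5.17-fold higher (adjusted p = 0.00705). ENSDARG00000081445 (U5), also at 0 in both ovaries, had 9 and 10 counts in the testes, at least 3.40-fold higher (adjusted p = 0.00906). Both lost their call when either ovary was left out. The call of ENSDARG00000081445 was also lost under DESeq2 (adjusted p = 0.0633) and in edgeR with no filter beyond 1 count (adjusted p = 0.0547). A library at 0 still allows up to 3 counts, so these copies were not detectable in the ovary at this depth rather than absent.

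U6, which sits at the catalytic centre, had the most annotated copies of these classes, most of them with few or no counts. Of its 303 IDs 13 were members, and these summed to 11 and 3 counts in the ovaries and 32 and 130 in the testes. The sums were 0.582 and 0.201 CPM against 2.09 and 8.28 CPM, and the testes differed by more than the lower testis differed from the ovaries. The log2 ratio of 3.73 was 2.42 without testis 2, 4.69 without ovary 1 and 4.40 without testis 1. The testes lay above the ovaries in counts and CPM for 6 members (46.2%), against 49.1% of all IDs by CPM alone. Of these 6, ENSDARG00000085130, ENSDARG00000109515, ENSDARG00000110956 and ENSDARG00000114713 had 1 count in testis 1 and none in the ovaries. The other 7 were counted as overlapping, though ENSDARG00000113647 separated in CPM (0.106 and 0.0671 against 0.131 and 0.382). Most U6 counts lay outside the members: 111 further U6 IDs had 1 to 9 counts and together held 280. Over all 303 IDs the U6 counts were 12 and 7 in the ovaries and 125 and 312 in the testes.

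The only U6 copy tested, ENSDARG00000080258, had no count in either ovary and 9 and 18 in the testes. That was 0.588 and 1.15 CPM in the testes, at least 4.82-fold higher than the floor of the ovaries (adjusted p = 0.00752). The call was lost when either ovary was left out, and the copy failed the filter without testis 2. ENSDARG00000080129 had 6 and 2 counts in the ovaries and 1 and 8 in the testes. It was the U6 copy with the second-highest mean CPM and showed no separation of the tissues.

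U4, the partner that holds U6 inactive until the spliceosome is activated, had 2 members of 14 IDs and few counts. Their sums were 2 and 3 counts in the ovaries and 30 and 2 in the testes, or 0.106 and 0.201 CPM against 1.96 and 0.127 CPM. ENSDARG00000112858 had 0 counts in the ovaries and 21 and 2 in the testes, and ENSDARG00000113699 had 2 and 3 against 9 and 0. The difference in U4 came from testis 1: without it the log2 ratio of the sums was -0.27, against 2.76 with all 4 libraries.

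The snRNAs found only in the minor spliceosome had few counts. Their 1 member, the U6atac copy rnu6atacb (ENSDARG00000083060), had no count in the ovaries and 5 and 21 in the testes. It was at least 4.62-fold higher in testis and was not tested. U12 had 1 ID with 2 counts, and U4atac had 2 IDs with 1 count between them, all in testis 1. No ID carried a U11 symbol.

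More annotated copies had a read in the testes than in the ovaries, although the ovary libraries were larger. At least 1 count was found for 42 and 49 of the 535 IDs in the ovaries (7.85% and 9.16%) and for 141 and 159 in the testes (26.4% and 29.7%). For U6 the share was 1.65% and 1.98% of 303 IDs against 20.8% and 27.7%, and for U5 25.0% and 15.0% of 20 against 70.0% and 80.0%. For U1 it was 13.7% and 18.1% of 182 against 29.7% and 28.6%. U2 ran the other way, with 6 of its 11 IDs detected in each ovary and 5 and 4 in the testes.

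**Figure D4:**
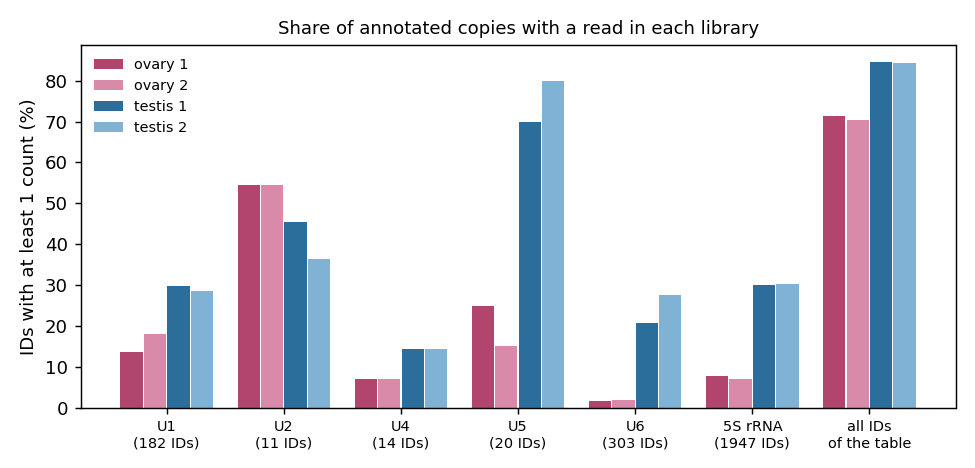
Bars of the percent of annotated IDs with at least 1 count in each of the 4 libraries (ovaries in red, testes in blue), for each of 5 snRNA classes and, for comparison, for 5S rRNA copies and all gene IDs. The testes are above the ovaries for U1, U4, U5, U6, 5S rRNA and all IDs, and below them for U2.

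The same pattern held outside the snRNAs. Copies of 5S rRNA, another multicopy short RNA, were detected as 150 and 135 of 1947 IDs in the ovaries (7.70% and 6.93%) and 584 and 591 in the testes, the latter 30.4%. Over all 32520 IDs a count was found for 71.4% and 70.3% in the ovaries and 84.6% and 84.3% in the testes. The part of this wider difference in the counts of snRNA copies was not tested.

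Some copies had nearly all of their counts for a sex in 1 fish. Taking copies with at least 10 counts in 1 library of a tissue and at most 1 in the other, 10 were high in testis 2 alone (7 U6, 2 U1 and 1 U5) and 2 in testis 1 alone (1 U1 and 1 U5). A single U1 copy, ENSDARG00000100820, was high in ovary 1 alone, with 10 counts there and none in the other 3 libraries. Among the U6 copies ENSDARG00000109457 had 16 counts in testis 2 and none elsewhere, and ENSDARG00000085130 had 1 and 15 in the testes and none in the ovaries. Those of the 10 copies with 1 count in testis 1, such as ENSDARG00000085130, are also among the members counted as higher in both testes. The U1 copy ENSDARG00000111966 had 15 counts in testis 1 and none elsewhere. Such counts differ between 2 fish of 1 tissue by as much as other copies differ between the tissues. These copies were picked out after their counts were seen.

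The minimum of 10 counts fell among copies with nearly equal values. Exactly 10 counts were held by 10 members (4 U1, 2 U5 and 4 U6), and 7 further IDs had 9 (3 U1, 1 U5 and 3 U6). All 3 U6 copies just outside had their 9 counts in testis 2.

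Most other groups of short RNAs were also higher in both testes. The RNA rn7sk, which holds the elongation factor P-TEFb inactive, stood at 19.1 and 44.2 CPM in the ovaries and 971 and 662 in the testes. Small nucleolar RNAs guide the modification of rRNA and snRNA. Those named snora summed to 13.9 and 17.9 CPM against 44.2 and 37.9. The 2 small Cajal body RNAs found, a group that guides the modification of snRNAs, summed to 0.106 and 0.0671 CPM against 1.31 and 0.573. The processing RNA rmrp stood at 92.0 and 109 CPM against 219 and 192, and rpph1, the RNA of ribonuclease P, at 200 and 787 against 1230 and 1830. Small nucleolar RNAs named snord had 60 and 41 counts in the ovaries and 163 and 110 in the testes. They were higher in both testes too, so the testis direction was shared by short RNAs other than snRNAs. The RNA of the signal recognition particle was split by annotation, since ovary and testis CPM were 441 and 951 against 2710 and 4600 for copies named rn7sl, and 1520 and 2980 against 37.9 and 94.3 for the 76 copies named metazoa_srp. The metazoa_srp copies were the only detected group of those listed to be higher in both ovaries. The part of a general difference in short RNAs in the snRNA values was not tested.

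The mRNAs for the proteins that bind, make and import snRNAs were more often higher in ovary than in testis. Of 117 listed symbols 105 were found, on 108 IDs, and 106 of these were tested. Of the 106, 66 were higher in ovary (62.3%, against 28.5% of all genes tested) and 4 higher in testis (3.77%, against 36.7%), and 36 did not pass. The 4 testis calls were 2 without testis 1 and 1 when any other library was left out. Their median log2 fold change was -1.19, against 0.45 over all genes tested. Scaling by library size alone moved the median of all genes to 1.19 and of these genes to -0.44, with 39 higher in ovary and 18 in testis. Under that scaling 3833 of all 21815 genes tested were higher in ovary and 10412 in testis. The counts per list under library size alone below are to be read beside these totals. The median of these genes minus that of all genes was -1.64, and it depended on the filter, at -0.85 when each library had to hold 10 counts or more and -2.32 with no filter beyond 1 count.

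**Figure D5:**
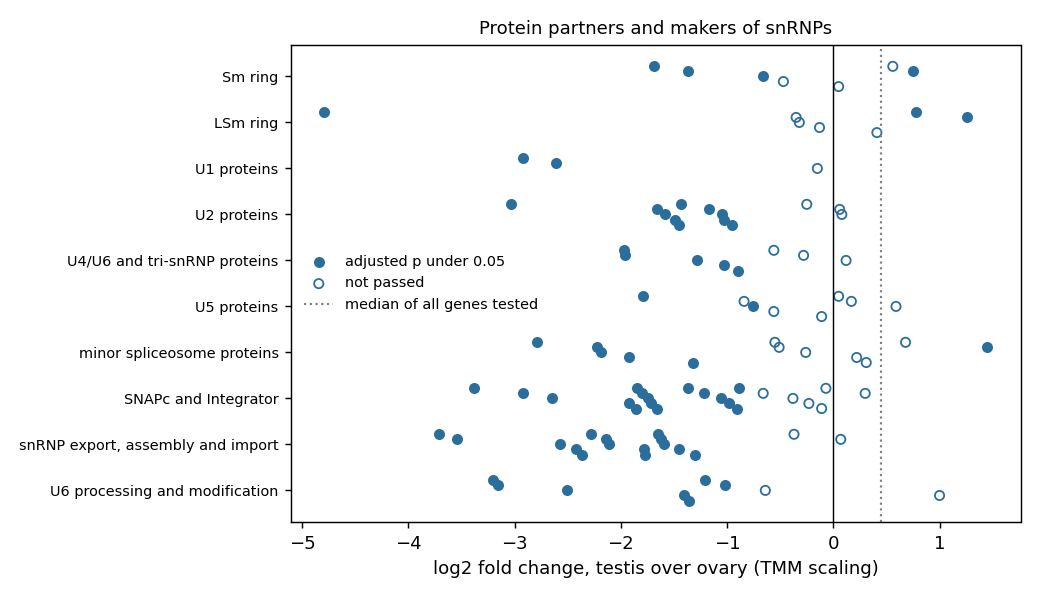
Log2 fold change (testis over ovary, TMM scaling) of each tested gene for snRNP proteins and snRNA biogenesis factors, by list, with filled points for genes past the test and a dotted line at the median of all genes tested (0.45). Most filled points lie left of 0, and the 4 to the right are snrpf, lsm5, lsm6 and cenatac.

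Genes for the snRNP proteins themselves were mixed. In the Sm ring, the ring of 7 proteins around all of these snRNAs but U6 and U6atac, 3 genes were higher in ovary, 1 in testis and 3 did not pass. The Sm gene snrpb stood at 371 and 389 CPM in the ovaries and 115 and 119 in the testes, a log2 fold change of -1.69 ± 0.23 (adjusted p = 0.00165). The other way ran snrpf, at 18.2 and 18.0 CPM against 31.4 and 29.4 (0.75 ± 0.26, adjusted p = 0.0417). The list's median was -0.47 and changed sign to 0.28 under library size alone.

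The LSm ring binds the 3′ end of U6. Of its 7 tested genes 1 was higher in ovary, 2 in testis and 4 did not pass, with a median of -0.13 that became 0.63 under library size alone. The gene lsm2 (ENSDARG00000103066) stood at 175 and 134 CPM in ovary and 5.82 and 5.28 in testis, a log2 fold change of -4.79 ± 0.27 (adjusted p = 0.000134). A second ID with the symbol lsm2 had no count in any library, so reads shared by the 2 IDs could be missing from this value. By contrast lsm6 stood at 53.5 and 36.7 CPM against 105 and 110 (1.26 ± 0.25, adjusted p = 0.00643), and lsm5 at 38.8 and 35.4 against 63.1 and 64.2 (0.78 ± 0.21, adjusted p = 0.0183). Proteins of 1 ring thus had mRNAs that differed between the tissues in opposite directions.

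Of the genes for U1-specific proteins, snrpa and snrpc were higher in ovary and snrnp70 did not pass (-0.15 ± 0.30, adjusted p = 0.677). The levels of snrpa were 210 and 182 CPM against 25.3 and 26.3 (-2.92 ± 0.22, adjusted p = 0.000268). Of 13 U2 protein genes 10 were higher in ovary and none in testis, with a median of -1.17. Under library size alone 3 were higher in ovary and 1 in testis, with a median of -0.44. The extreme was snrpb2, which encodes the U2B″ protein, at 91.0 and 112 CPM against 16.4 and 8.40 (-3.03 ± 0.37, adjusted p = 0.00111), while sf3b1, for the core branch-point protein, stood at 267 and 271 against 269 and 292 (0.06 ± 0.23, adjusted p = 0.82).

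Of 8 tested genes for U4/U6 and tri-snRNP proteins 5 were higher in ovary and none in testis (2 and 1 under library size alone), with prpf31, whose protein clamps U4 to U5, at 88.2 and 80.9 CPM against 19.9 and 23.1 (-1.97 ± 0.22, adjusted p = 0.000839). Of 8 U5 protein genes 2 were higher in ovary and 6 did not pass. The gene snrnp40 stood at 80.2 and 60.9 CPM against 17.6 and 22.9 (-1.79 ± 0.27, adjusted p = 0.00224), and prpf8, which encodes the large scaffold at the catalytic centre, at 736 and 556 against 524 and 670 (-0.11 ± 0.34, adjusted p = 0.79). The U5 median of -0.33 became 0.42 under library size alone.

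Of 12 genes for proteins of the minor spliceosome 5 were higher in ovary, 1 in testis and 6 did not pass, with a median of -0.53 that became 0.21 under library size alone. The gene scnm1 stood at 78.1 and 77.2 CPM against 8.37 and 14.1 (-2.79 ± 0.32, adjusted p = 0.000835). The only gene of this list called higher in testis was cenatac, at 4.81 and 3.63 CPM against 12.4 and 10.8 (1.45 ± 0.45, adjusted p = 0.0297).

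Genes for factors that make snRNAs and carry them through assembly had no testis call under TMM scaling. SNAPc is the complex that starts snRNA transcription and Integrator cuts the 3′ ends of the nascent transcripts. Their list of 22 genes also held ice1 and ice2, which belong to neither complex. Of the 22, 16 were higher in ovary and none in testis (median -1.30), and 10 and 2 under library size alone (median -0.56). The 16 included ice1 (-1.74 ± 0.23, adjusted p = 0.00144), while ice2 did not pass. The Integrator gene ints3 stood at 333 and 329 CPM in the ovaries and 39.2 and 47.9 in the testes (-2.92 ± 0.24, adjusted p = 0.000327). Of the 17 genes for export, Sm ring assembly by the SMN complex and nuclear import, 15 were higher in ovary and none in testis (median -1.78), and 13 and 1 under library size alone (median -1.01). Here gemin7, a subunit of the SMN complex, stood at 123 and 117 CPM against 9.08 and 9.11 (-3.71 ± 0.23, adjusted p = 0.000159). Of 9 genes for U6 processing and modification 7 were higher in ovary and none in testis (median -1.36), and 3 and 1 under library size alone (median -0.63). The gene ssb, whose La protein binds the end of new U6, stood at 216 and 199 CPM against 21.4 and 23.6 (-3.20 ± 0.22, adjusted p = 0.000215). The named genes were chosen for the size of their change and do not stand for their lists.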

How the data were processed

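RNA was measured in 2 ovary and 2 testis libraries of null-control adult zebrafish. Per the labels, RNA was depleted of ribosomal RNA and libraries were stranded, whereas the study's methods describe poly(A)-selected adult libraries, which may not include these. The deposited values are raw read counts per gene ID. By the study's methods and processing notes, the authors aligned reads with HISAT2 2.0.5 to GRCz11 with Ensembl release 95 genes, removed duplicates with SAMtools 1.5 and counted with HTSeq 0.9.1 on the reverse strand. Whether duplicates were removed from these counts was not tested; removal would compress counts of short RNAs. Symbols were found for 29201 of 32520 IDs. No member matched the sequence tables used here, so no sequence or position is given.

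Counts were filtered with filterByExpr and scaled by TMM. Testis was tested against ovary over 21815 genes with edgeR 4.0.16 (limma 3.58.1, R 4.3.3) by the quasi-likelihood test, after testing on simulated data. The simulation changed only genes with more counts than most members, so recovery of changes at low counts was not tested. The SE is the log2 fold change divided by the square root of F. Adjusted p-values are Benjamini-Hochberg, called under 0.05. CPM is per 1000000 of the TMM-scaled library. Ratios of pooled counts have exact conditional binomial 95% intervals and shares of counts Wilson intervals, for counting error only. Where both libraries of a tissue were at 0, folds were set against 3 counts per library and are lower bounds. Tables used Python 3.11.15 and pandas 2.3.3.

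Named copies were, in each class, the 2 with the highest mean CPM, any single member, and the 5 called copies with the highest mean CPM in each direction. The remaining called copies and those singled out in the text were named after their values were seen. Named protein genes were, per list, the called gene with the largest change in each direction among those averaging 5 or more on the log2 CPM scale, and genes called against their list. The genes snrnp70, sf3b1, prpf8, snrpc and lsm5 were added as examples after their values were seen. The members and lists were chosen with earlier results of these data known. Alternatives were other scalings, filters, tests and thresholds, each library left out, and the replicate number as a block (DESeq2 1.42.0). The fish are separate animals from 1 tank, so p-values concern the spread between fish and not between tanks. With 2 fish per tissue, the spread used for each gene was also drawn towards that of all genes tested.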

Additional observations from a re-analysis of the deposited data

How the results depend on the processing

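The 10 testis calls became 0 with at least 10 counts in every sample, a filter that removed every member, and 5 to 16 when 1 library was left out (5 without ovary 1 and without ovary 2, 16 without testis 1). The 2 ovary calls became 0 under DESeq2's Wald test, at an adjusted p under 0.01 and with the minimum of 10 counts per library. They became 1 under library size alone and with the replicate block, and fell when any 1 library was left out. The 4 testis calls among protein genes became 10 with 10 counts in every sample, 18 under library size alone, 2 with the replicate block, 1 at 0.01 and 1 to 2 leaving 1 library out. Their 66 ovary calls became 39 under library size alone. Over all genes tested that scaling took the ovary calls from 6217 to 3833 and the testis calls from 8002 to 10412. In each single-library fit a lone library is assumed to vary like the other tissue.

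Library size alone raised the log2 ratio of every class sum alike: U1 1.23 to 1.95, U2 3.29 to 4.00, U4 2.76 to 3.51, U5 3.94 to 4.72, U6 3.73 to 4.50 and all members 2.61 to 3.32. With copies of at least 100 counts they were 5.35 for U1 (ENSDARG00000083063 alone) and 3.92 for all (that copy with ENSDARG00000082321 and ENSDARG00000115204 of U2). Without the top copy they were 0.53 for U1, 2.65 for U2, 0.94 for U4 and 4.71 for U5. Over all U6 copies with a count the ratio was 4.67. Leaving out 1 library gave 0.83 to 1.80 for U1, 2.84 to 3.97 for U2, -0.27 to 3.67 for U4 (reversed without testis 1), 3.40 to 4.80 for U5, 2.42 to 4.69 for U6 and 2.26 to 3.06 for all.

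No direction of the 12 tested copies reversed, and the call was lost in 23 recomputed values and held in 91. The replicate block lost that of ENSDARG00000112345 (adjusted p = 0.0595). Apart from the filter and scaling, the cause was not tested. Same-numbered libraries did not deviate together (correlation -0.0326 over 21815 genes). This correlation alone cannot show whether the numbers pair the fish. The legacy quasi-likelihood test, tried after seeing the data, called 7848 and 6182 genes against 8002 and 6217. Counts under 10 per copy limit what can be seen in the ovaries.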
